A study of Homo sapiens with 8 samples.

Results

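SUIT2 is a human pancreatic ductal adenocarcinoma (PDA) cell line established from a metastasis, and its RNA was sequenced in 8 libraries. Of these, 4 were labelled shScr (a scramble shRNA control) and 4 were labelled shEn1 (shRNA against EN1), with 2 from each of the constructs shEn1_1 and shEn1_2. Every library came from cells with an shRNA. The shRNAs against EN1 were in a pLKO.1 puro vector, and the vector of the scramble control was not named. Whether the libraries were clones or separate cultures was not stated. The comparison described here does not follow those labels: it sets the libraries labelled shScr_3, shScr_4, shEn1_1.1 and shEn1_2.1, called side A, against those labelled shScr_1, shScr_2, shEn1_1.2 and shEn1_2.2, called side B. All 8 of 8 libraries entered, and each side held 2 of each label. The sides were selected on the read counts of these same 8 libraries across genes, after those had been seen, so every difference between them is given as a description with no test, and the comparison is not EN1 knockdown.

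EN1 itself, the homeodomain transcription factor the shRNAs were designed against, did not follow the labels. It read 4.10, 4.50, 4.94 and 2.51 CPM (read counts scaled to a common library size) in the libraries labelled shScr_1 to shScr_4. It read 5.77 and 5.41 CPM in those labelled shEn1_1.1 and shEn1_1.2, and 1.35 and 6.70 CPM in those labelled shEn1_2.1 and shEn1_2.2. The label contrast gave a log2 fold change of 0.26 ± 0.43 (SE, n = 4 and 4; edgeR quasi-likelihood test, adjusted p = 1.00), the sign being that of a higher level in shEn1. The sides overlapped in EN1 as well. The 2 lowest EN1 libraries, labelled shScr_4 and shEn1_2.1, both lay in side A, and the other 2 libraries of side A lay within the range of side B.

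PDA cells are epithelial cells that keep keratins, cell-cell junctions and integrin contacts with laminin in the basement membrane. Such cells can shift along an epithelial-mesenchymal axis, in which junction and keratin genes decline while mesenchymal, matrix and migration genes increase, and clones or cultures of the same line can differ in where they stand. The genes that separated the sides are set out below by these roles. A gene was said to separate the sides when the 4 libraries of one side and the 4 of the other did not overlap and the side means differed by at least 1.5-fold. Levels are CPM scaled with TMM factors and are not corrected for gene length, so they were compared between libraries and not between genes. Differences are side A minus side B on the log2 CPM scale (prior count 2), and side means are geometric means.

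Of 14333 genes kept, 748 separated the sides (5.22%), 478 of them higher in side A (3.33%) and 270 lower (1.88%). Without a fold minimum, 1609 genes (11.2%) showed no overlap. At 2-fold between the side means, 275 genes were higher and 92 lower in side A, and at 4-fold 63 and 14. The gap between the nearest libraries of the sides exceeded 2-fold in 36 higher and 6 lower genes. The median difference over all genes was −0.01. The split depended on the scaling: 63.9% of the separating genes were higher in side A with TMM factors, 71.9% with upper-quartile scaling and 74.5% with library size alone. The gene just inside the 1.5-fold limit was VAV1 (−0.59, gap 0.14) and the gene just outside it was ARHGAP42 (−0.58, gap 0.12). These counts come from the contrast that chose the sides and are read as its size only.

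Side A was not one tight group. Its libraries formed 2 pairs, shScr_3 with shEn1_1.1 and shScr_4 with shEn1_2.1, each made of one library of either label. The root mean square log2 distance between libraries was 0.512 within the first pair and 0.395 within the second, but 0.736 to 0.786 between libraries of different pairs. The 6 distances within side B lay between 0.488 and 0.556, and the 16 distances between sides between 0.553 and 0.841. The first principal component (44.4% of the variance) placed shScr_4 and shEn1_2.1 at 59.2 and 62.1 and the other 6 libraries between −27.6 and −9.15. The second (17.5%) placed shScr_3 and shEn1_1.1 at −39.3 and −30.6, below the other 6 libraries, which lay between 2.07 and 29.4.

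**Figure D1:**
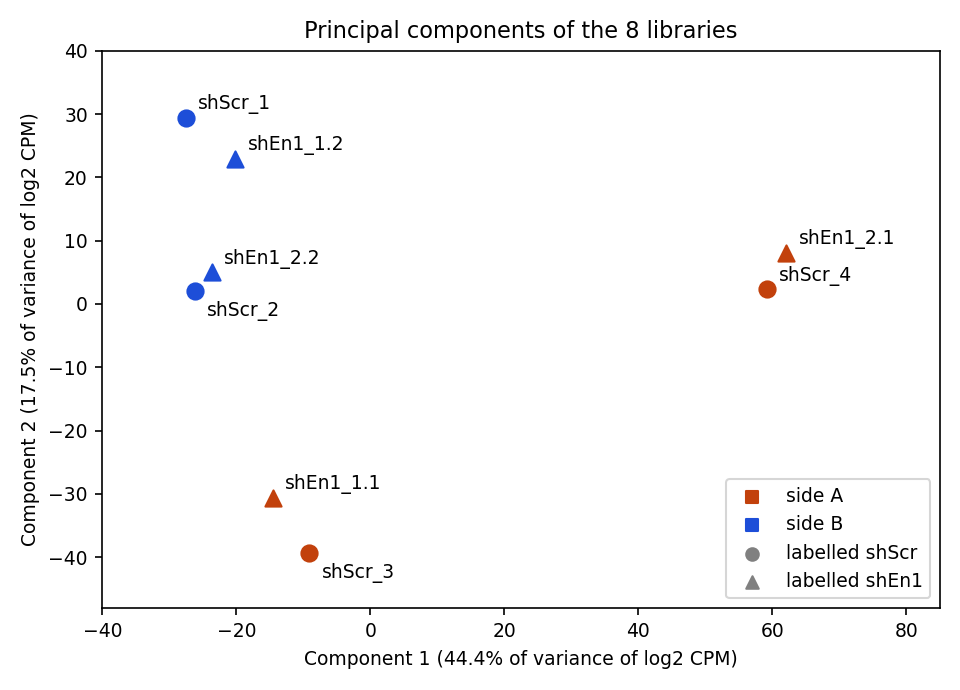
Scores of the 8 libraries on the first 2 principal components of log2 CPM, with the percent of variance on each axis; colour gives the side and marker shape the label. The libraries labelled shScr_4 and shEn1_2.1 stand alone on the first component, those labelled shScr_3 and shEn1_1.1 lie lowest on the second, and the 4 libraries of side B lie together.

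The separating genes are therefore those in which both pairs departed from side B in the same direction. Among the 478 higher genes, the median difference from side B was 0.90 in the pair shScr_3 and shEn1_1.1 and 1.27 in the pair shScr_4 and shEn1_2.1, and 357 were further from side B in the second pair. Among the 270 lower genes the medians were −0.65 and −1.05, with 214 further away in the second pair. Because the rule allowed no overlap, both labels had to differ in the same direction, so their medians are given as a description only. The higher genes had a median difference of 1.12 among the libraries labelled shScr and 1.05 among those labelled shEn1, and the lower genes −0.84 and −0.89.

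The markers EPHA7, MXD4, ITGA6 and DPEP1 were given with the sides and illustrate both directions. Values follow the order shScr_3, shScr_4, shEn1_1.1, shEn1_2.1 for side A and shScr_1, shScr_2, shEn1_1.2, shEn1_2.2 for side B throughout. EPHA7 (chromosome 6, 93949738 to 94129405, minus strand, GRCh37), a receptor tyrosine kinase for membrane-bound ephrin-A ligands, read 21.9, 36.1, 23.2 and 43.1 CPM in side A and 3.38, 4.75, 2.85 and 3.60 CPM in side B. Every library of side A was more than 4 times as high as any library of side B, and the side means differed 8.21-fold (log2 3.04, gap 2.19). MXD4 (chromosome 4, 2249159 to 2263836, minus strand), which dimerizes with MAX and represses transcription in competition with MYC, read 37.5, 35.9, 22.4 and 32.1 CPM in side A and 8.44, 9.49, 8.15 and 7.99 CPM in side B. Its side means differed 3.68-fold (log2 1.88), and the lowest library of side A, labelled shEn1_1.1, was still above every library of side B by 1.24 on the log2 scale.

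The other 2 markers were lower in side A. ITGA6 (chromosome 2, 173292082 to 173371187, plus strand), the integrin alpha-6 subunit that binds laminin, read 570.1, 518.6, 646 and 562.2 CPM in side A and 1219, 1184, 1262 and 1196 CPM in side B. The libraries were closely grouped within each side, and the difference of 2.12-fold (log2 −1.09) was nearly the same in both pairs (−1.001 and −1.17). DPEP1 (chromosome 16, 89679716 to 89704864, plus strand), a membrane dipeptidase, read 44.3, 31.8, 23.2 and 26.9 CPM in side A and 105.2, 101.8, 99.4 and 119.6 CPM in side B, a 3.46-fold difference (log2 −1.79, gap 1.17). Between the labels, none of these 4 genes passed the edgeR quasi-likelihood test (each adjusted p = 1.00). Their log2 fold changes for shEn1 over shScr lay between −0.37 and 0.14, with standard errors of 0.36 to 0.97. Each gene was split by the sides within both labels, and that split counts as spread in this test. A label difference in them could therefore hardly have been called.

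Among genes with a mean of at least 5 CPM, the widest gap of any gene higher in side A belonged to RGS4, a regulator that ends signalling by G proteins. RGS4 read 9.53, 42.7, 15.3 and 43.5 CPM in side A and 1.99, 1.46, 1.53 and 1.23 CPM in side B (log2 3.85). All of side A was high, and the libraries labelled shScr_4 and shEn1_2.1 were the highest. CXCR4, the receptor for the chemokine CXCL12 and a gene of cell migration, read 9.15, 7.42, 16.2 and 7.98 CPM in side A against 2.32, 2.54, 3.47 and 2.58 CPM in side B (log2 1.82). Here the library labelled shEn1_1.1 was the highest. NEURL1B, an E3 ubiquitin ligase of Notch ligand endocytosis, read 11.8, 15.4, 7.23 and 12.4 CPM in side A against 0.964, 2.27, 2.09 and 2.30 CPM in side B (log2 2.61).

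More abundant genes were separated by smaller folds but with libraries close together. DYNLRB1, a light chain of cytoplasmic dynein, read 113.9, 153.8, 123 and 146.6 CPM in side A and 62.1, 53.0, 62.3 and 52.8 CPM in side B (log2 1.22). HSD17B10, a mitochondrial dehydrogenase that is also part of mitochondrial RNase P, read 108.2, 100.1, 99.1 and 94.8 CPM against 52.9, 40.8, 51.3 and 49.1 CPM (log2 1.05). The other genes named for a wide gap in this direction were ANTXR1, IFI6, NXPH4, LMLN and STAT2, with differences of 0.98 to 2.65.

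In the opposite direction, FA2H, the fatty acid 2-hydroxylase of sphingolipid synthesis, had the widest gap. It read 15.0, 20.1, 16.2 and 21.2 CPM in side A and 78.0, 48.5, 91.0 and 54.2 CPM in side B (log2 −1.87). The calcium-binding protein gene CALB2 read 51.9, 12.2, 48.1 and 10.8 CPM in side A and 111.0, 94.5, 113.7 and 98.3 CPM in side B (log2 −2.12). GALNT3, which starts mucin-type O-glycosylation, read 17.9, 5.79, 20.7 and 3.23 CPM against 40.9, 49.1, 34.4 and 45.4 CPM (log2 −2.20). In both genes side A split by pair, and the libraries labelled shScr_4 and shEn1_2.1 were the lowest. By contrast CYP2S1, a cytochrome P450, was even across side A at 81.4 to 93.3 CPM and across side B at 163.4 to 185.9 CPM (log2 −0.97). NIPAL1, TSPAN18, PLXNA2, C1orf116, PROSER2 and TMC5 completed this group with differences of −2.12 to −0.86.

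**Figure D2:**
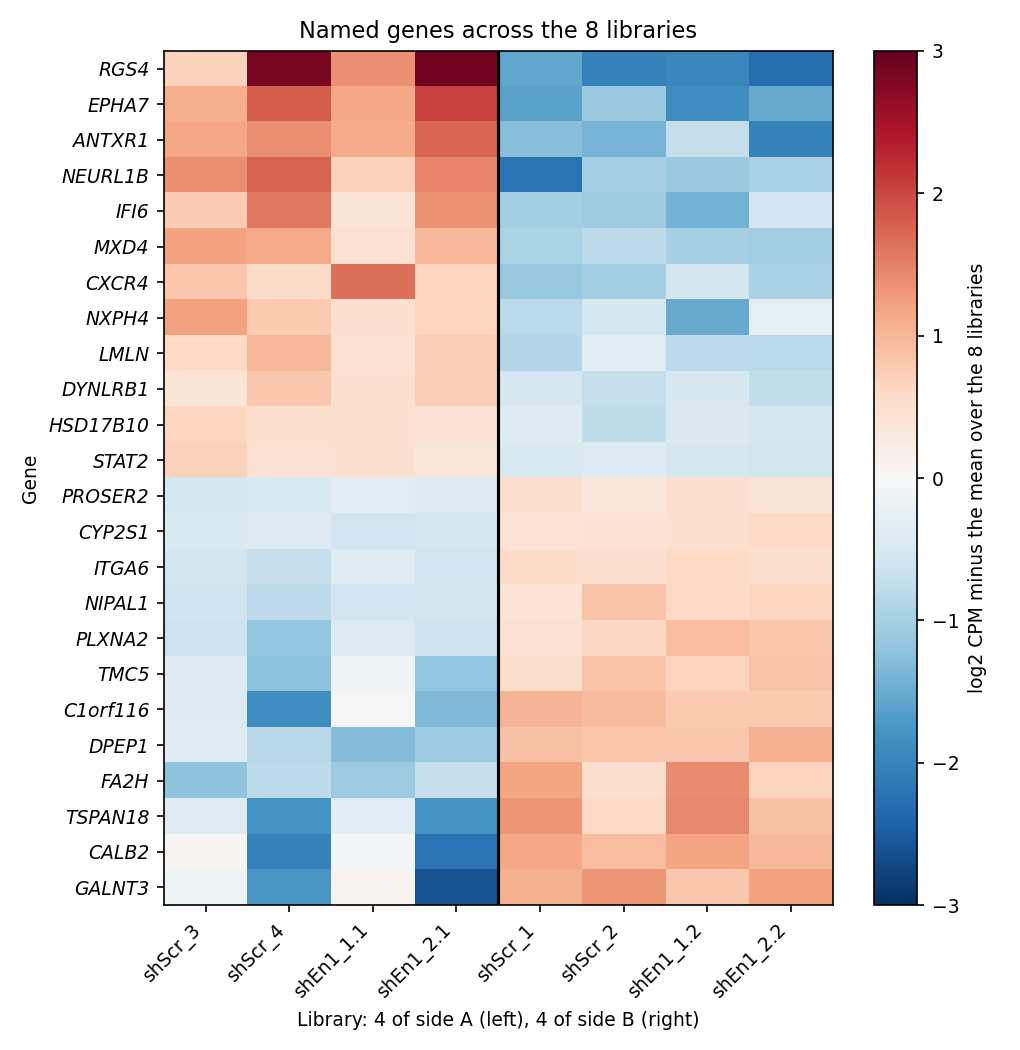
Heatmap of log2 CPM minus the mean over the 8 libraries for the 24 markers and genes with the widest gaps, one row per gene and one column per library, with the line between side A (left) and side B (right). The upper 12 rows are above their mean in side A and the lower 12 are below it or near it, and the columns of shScr_4 and shEn1_2.1 carry the deepest colours in rows such as RGS4, CALB2 and GALNT3.

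The laminin and hemidesmosome genes that separated the sides were lower in side A. ITGA6 pairs with the integrin beta-4 subunit in hemidesmosomes, which hold cells to laminin in the basement membrane. Of the 13 laminin and hemidesmosome genes kept, 0 were higher and 2 lower in side A (15.4%, beside 5.22% of all genes), with a median of −0.30. LAMA3, a laminin alpha chain, read 331.7, 276.9, 472.7 and 327.6 CPM in side A and 848.5, 646.8, 814.6 and 614.2 CPM in side B (log2 −1.07). LAMB3, a laminin beta chain, had a difference of −0.68 with overlapping libraries, and the partner ITGB4 had −0.41, also overlapping.

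Integrin subunits as a family moved in both directions, with 3 of 20 higher, 2 lower and a median of −0.06. Among all genes kept, 3.33% were higher and 1.88% lower. ITGB6, whose product forms a receptor that activates TGF-beta, was lower together with ITGA6 (15.9 to 34.5 CPM in side A against 39.2 to 52.7 CPM in side B). ITGA5, the fibronectin receptor subunit, was higher at 43.0 to 51.6 CPM against 23.8 to 28.2 CPM (log2 0.81). ITGA7, another laminin receptor subunit, was higher at 4.96 to 14.4 CPM against 1.39 to 4.03 CPM (log2 2.05). ITGA2B had 16, 14, 12 and 18 counts in side A and 0 counts in all 4 libraries of side B, so its separation rests on few reads.

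Genes of epithelial identity were lower in side A. Of 5 markers (EPCAM, KRT8, KRT18, KRT19 and CDH1), 0 were higher and 3 lower by the rule, and the median was −0.79. By the same rule, 3.33% of all genes were higher and 1.88% lower. CDH1, the E-cadherin of adherens junctions, read 177.5, 124.2, 156.5 and 103 CPM in side A and 230, 224.8, 241.3 and 256.4 CPM in side B (log2 −0.79). EPCAM, an epithelial adhesion molecule, read 366, 234.3, 400.8 and 241 CPM against 549.4, 589.4, 545.3 and 524.9 CPM (log2 −0.87). KRT19, a ductal keratin, had a log2 difference of −1.16, but its nearest libraries almost touched, at 1037 CPM in shScr_3 and 1040 CPM in shEn1_1.2. KRT8 and KRT18, the keratin pair of simple epithelia, were also below side B in all 4 libraries, but by −0.36 and −0.37, under the fold limit. Without the libraries labelled shScr_4 and shEn1_2.1, 0 of the 5 passed the rule and the median was −0.49. In that setting 8.39% of all genes separated the sides, and without the other pair 21.1% did. All counts below that leave out a pair stand beside these shares. With upper-quartile or library-size scaling, 2 of the 5 passed, both lower.

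The related lists showed the same sign. Of 9 keratins kept, 3 were lower and 0 higher (33.3%, beside 5.22% of all genes). KRT7 read 191.8 to 567.5 CPM in side A and 847.4 to 1080 CPM in side B (log2 −1.57). Without the libraries labelled shScr_4 and shEn1_2.1, 2 keratins were lower and 2 higher. Of 20 tight junction genes, 2 were lower and 0 higher (median −0.51), and 3 of 20 had a positive difference. CLDN7, a claudin of the junction strand, read 77.0, 25.8, 61.6 and 18.1 CPM in side A and 120.1, 121.2, 112.3 and 148.6 CPM in side B (log2 −1.69). Of 8 desmosome genes, DSC2 alone was lower (12.5% of the list, log2 −0.73) and 0 were higher. Among 16 mucins, trefoil factors and ductal surface proteins, DPEP1 and MSLN were lower and TFF2 higher (18.8% of the list). The median of that list was −0.88 over side A but 0.09 in the pair shScr_3 and shEn1_1.1 and −1.80 in the pair shScr_4 and shEn1_2.1, so it did not describe side A as a whole.

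**Figure D3:**
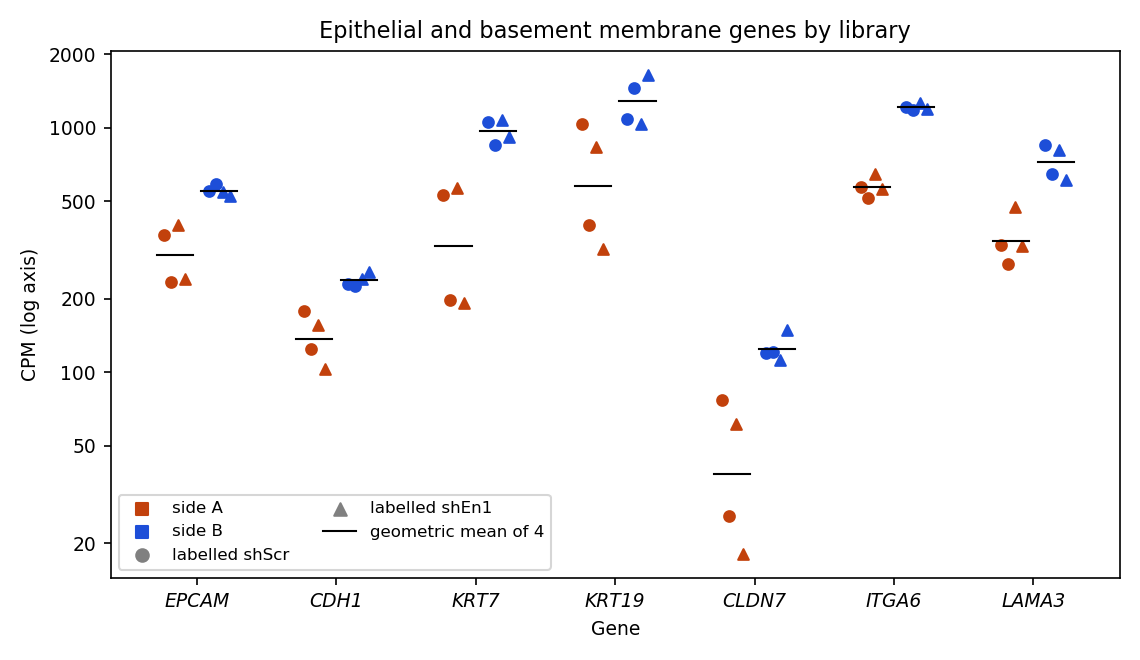
CPM on a log axis for 7 epithelial and basement membrane genes, with 1 point per library, side A left (orange) and side B right (blue) of each gene, circles for shScr and triangles for shEn1, and a bar at the geometric mean of 4. No gene shows overlap of the sides, ITGA6 is tight within each side, and KRT7, KRT19 and CLDN7 spread widely within side A.

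Mesenchymal genes gave the opposite picture in part. Of 24 cadherin and mesenchymal genes kept, 5 were higher in side A and 2 lower (29.2%, beside 5.22% of all genes), and the median was 0.05. Without the libraries labelled shScr_3 and shEn1_1.1, 12 were higher and 6 lower (median 0.585). Without the other pair, 5 were higher and 2 lower (median −0.03). CALD1, the actin-binding caldesmon, read 4.85, 7.48, 5.69 and 6.50 CPM in side A and 1.21, 1.03, 0.706 and 1.17 CPM in side B (log2 2.52). ANTXR1, a receptor that binds collagen, read 7.78, 9.13, 7.51 and 11.7 CPM against 1.45, 1.32, 2.12 and 0.860 CPM (log2 2.65). CCDC80, a matrix-associated protein, ranged from 3.02 to 4.45 CPM against 0.422 to 0.647 CPM (log2 2.60). All of these were genes of low abundance, with every library of side A above every library of side B.

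ZEB1, a repressor of CDH1, read 10.96, 20.2, 22.3 and 23.6 CPM in side A and 10.1, 10.4, 10.3 and 9.40 CPM in side B (log2 0.88), and its lowest library in side A, shScr_3, was only 0.07 above the highest of side B. FN1, fibronectin, was higher by 1.48 at levels of at most 2.21 CPM. ESRP1, an epithelial splicing regulator, was lower together with CDH1 (log2 −0.85). VIM, the mesenchymal intermediate filament gene, did not follow the sides: it read 575.2, 2241, 808.5 and 2482 CPM in side A and 1759, 1123, 1917 and 1217 CPM in side B.

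Among 23 collagen and matrix genes, 4 were higher and 1 was lower (21.7%, beside 5.22% of all genes), and the median was 0.41. Without the libraries labelled shScr_3 and shEn1_1.1, 6 were higher and 5 lower (median 0.12). Without the other pair, 8 were higher and 1 lower (median 0.40). COL12A1, a fibril-associated collagen, read 4.28, 7.77, 4.37 and 9.37 CPM in side A against 1.15, 0.944, 2.06 and 1.63 CPM in side B (log2 2.09). COL6A1 read 27.8 to 37.2 CPM against 16.6 to 22.2 CPM (log2 0.78). COL13A1, a transmembrane collagen, was lower at 12.4 to 33 CPM against 41.3 to 57.7 CPM (log2 −1.28).

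Receptor and guidance families held separating genes in both directions. Of 17 EPH receptors and ephrins, EPHA7, EFNB3 and EPHB3 were higher and EPHA1 lower (23.5%, beside 5.22% of all genes), with a median of 0.02. EPHB3 read 6.66, 6.06, 3.19 and 5.46 CPM in side A and 0.964, 2.16, 2.38 and 2.34 CPM in side B (log2 1.45). EPHA1 read 13.6, 7.56, 10.1 and 6.60 CPM against 19.3, 19.9, 18.2 and 25.9 CPM (log2 −1.18). Of 31 axon guidance genes, 4 were higher and 3 lower (22.6%). SEMA3E (log2 1.31) was among the higher genes, and the semaphorin co-receptors PLXNA2 (log2 −1.39) and NRP2 (log2 −1.26) were among the lower.

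Among 20 ERBB receptor, ligand, MET and AXL genes, 3 were higher and 2 lower. Without the libraries labelled shScr_3 and shEn1_1.1, 5 were higher and 7 lower, and without the other pair 5 were higher and 2 lower. The shares over all genes in these settings were 21.1% and 8.39%, and the share with both pairs was 5.22%. The lower genes were the EGFR ligands AREG, at 8.73 to 12.8 CPM in side A against 18.3 to 31.2 CPM in side B (log2 −1.32), and EREG, at 309 to 532.4 CPM against 543 to 911.9 CPM (log2 −0.89). The higher genes were LRIG1, a negative regulator of ERBB receptors (log2 1.47), NRG2, a neuregulin (log2 1.43), and GAS6, the ligand of AXL (log2 1.31).

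In the WNT list 5 of 36 genes were higher and 2 lower (19.4%, beside 5.22% of all genes). Without the libraries labelled shScr_3 and shEn1_1.1, 5 were higher and 9 lower, and without the other pair 9 were higher and 1 lower. The WNT ligands themselves split: WNT10A (log2 −1.14) and WNT7A (log2 −1.13) were lower, while WNT5B was higher at 4.31 to 6.14 CPM against 1.63 to 3.02 CPM (log2 1.04). Of 24 Notch pathway genes, NEURL1B and the ligand JAG2 (log2 1.06) were higher and 0 were lower (8.33%). Without the libraries labelled shScr_3 and shEn1_1.1, 6 were higher and 6 lower, and without the other pair 2 were higher and 0 lower. In the MYC-MAX-MXD network, MXD4 and MXD3 (log2 0.61) were the separating genes of 12 (16.7%). MYC read 96.5 to 156.3 CPM in side A and 127.3 to 155.4 CPM in side B, which overlapped, and MAX differed by −0.02.

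Interferon-stimulated genes gave 5 higher and 0 lower of 40 (12.5%, beside 5.22% of all genes), with a median of 0.16. IFI6 read 15.9, 28.01, 12.3 and 23.8 CPM in side A and 4.64, 4.50, 3.501 and 6.33 CPM in side B (log2 2.02). STAT2, a transcription factor of the interferon response, read 39.3, 33.4, 33.9 and 31.2 CPM against 17.8, 18.4, 16.95 and 16.6 CPM (log2 0.98). IFIT1 read 13.9 to 24.2 CPM against 7.30 to 11.4 CPM (log2 1.03). The median of the list was 0.40 in the pair shScr_3 and shEn1_1.1 and −0.09 in the other pair, so the list as a whole was not higher throughout side A. Without the libraries labelled shScr_4 and shEn1_2.1, 13 of its genes were higher and 0 lower, and without the other pair 7 were higher and 5 lower.

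Replication-dependent histone genes gave 6 higher and 0 lower of 16 (37.5%, beside 5.22% of all genes) and a median of 0.86. H1-2, a linker histone, read 48.0, 20.4, 44.01 and 18.2 CPM in side A and 9.40, 15.2, 7.53 and 13.9 CPM in side B (log2 1.43). The summed level of the list lay between 133.8 and 201.4 CPM in side A and between 66.4 and 110.7 CPM in side B. Most of these transcripts lack a poly(A) tail and many have near-identical copies, so their counts are uncertain. Over the small non-polyadenylated RNAs the summed level was 284.5 to 667.2 CPM in side A and 242.8 to 783.3 CPM in side B, which overlapped, and 0 of 7 separated the sides.

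Stress and metabolic lists were next. NRF2 target genes of the antioxidant response gave 0 higher and 4 lower of 27 (14.8%, beside 5.22% of all genes), among them TXNRD1, thioredoxin reductase, at 492.9 to 723.2 CPM in side A against 812.2 to 1126 CPM in side B (log2 −0.75), and ABCC3 (log2 −0.92). The balance of this list differed by pair: without the libraries labelled shScr_4 and shEn1_2.1 it gave 2 higher and 1 lower, and without the other pair 1 higher and 11 lower. Of 36 hypoxia and glycolysis genes, 2 were higher and 2 lower (11.1%). SLC2A3, a glucose transporter, read 1.38, 6.68, 1.09 and 8.41 CPM in side A and 0.301, 0.216, 0.0589 and 0 CPM in side B. ENO2, the neuronal enolase, was higher (log2 1.14), and VEGFA (log2 −0.63) and EGLN3 (log2 −1.07) were lower. Of 29 ATF4 amino acid response genes, 3 were higher and 2 lower (17.2%), and SHMT2, the mitochondrial serine hydroxymethyltransferase, was among the higher genes (log2 0.62).

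Several growth and housekeeping lists held no separating gene, though at 5.22% of all genes a list of their size would hold few. The rule was met by 0 of 40 S phase and mitosis genes, 0 of 59 cytosolic ribosomal protein genes, 0 of 57 respiratory chain genes, 0 of 31 proteasome subunits, 0 of 28 caspase and death receptor genes and 0 of 24 YAP-TEAD genes. Their medians lay between −0.07 and 0.05, but that of the ribosomal protein genes was 0.18 in the pair shScr_3 and shEn1_1.1 and −0.24 in the other pair. With library size alone as the scaling, 1 of the 57 respiratory chain genes met it. Of 19 G1 cyclin and CDK inhibitor genes, the inhibitor CDKN2D was higher (log2 0.72) and the kinase gene CDK6 lower (log2 −0.69). Ribosome biogenesis genes were shifted a little: 1 of 40 had a positive difference, the median was −0.24, and DDX18 alone passed the fold limit (88.4 to 167.8 CPM in side A against 203.7 to 249.1 CPM in side B). That median was −0.10 in the pair shScr_3 and shEn1_1.1 and −0.405 in the other pair. With library size alone it was −0.17, while the median over all genes was 0.07. Cholesterol and fatty acid synthesis genes (−0.27) and ER chaperone genes (−0.23) had medians of similar size with TMM factors. Over all 50 lists, 104 of 1122 kept list genes (9.27%) separated the sides, 61 higher and 43 lower, beside 5.22% of all genes, and the lists had been chosen with results of these data known.

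**Figure D4:**
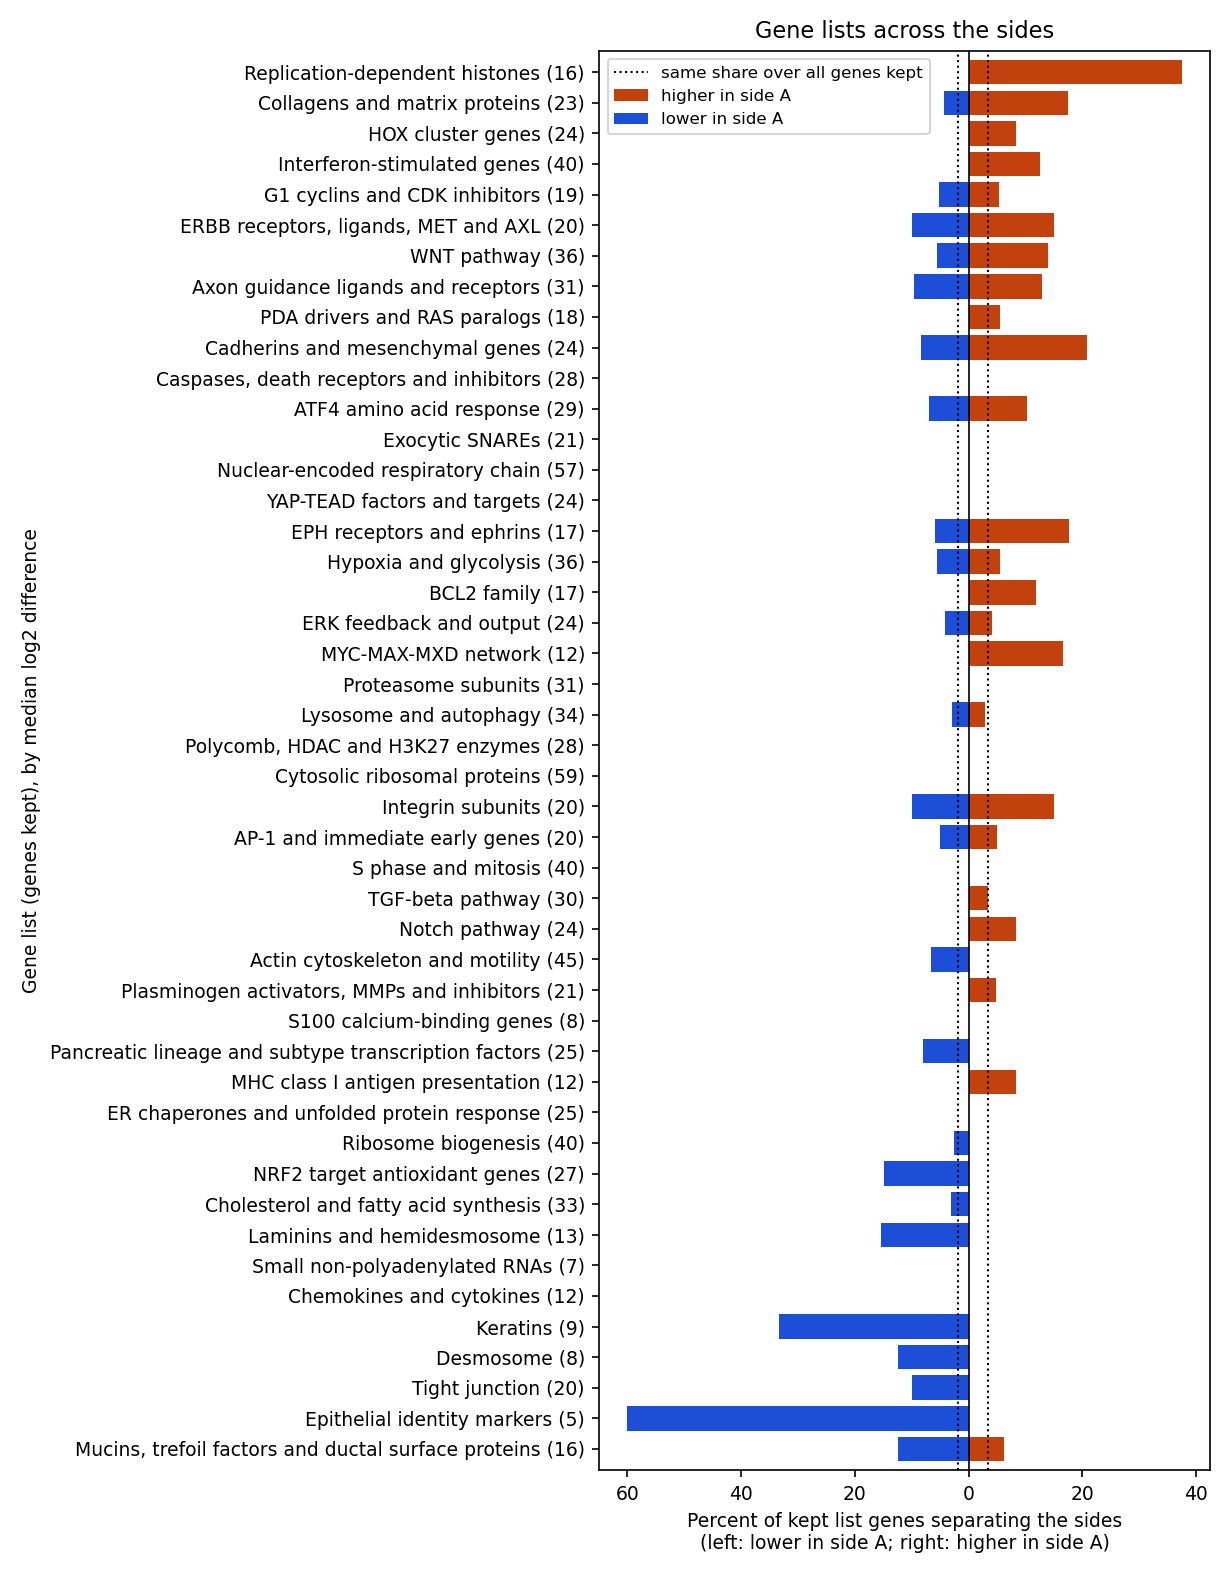
Percent of the kept genes of each list drawn that separate the sides, with bars to the right for genes higher in side A and to the left for genes lower in side A, ordered by the median log2 difference, and dotted lines at the shares over all genes (3.33% higher, 1.88% lower); the number of kept genes is in parentheses and lists with few kept genes rest on 1 to 3 genes. Histones (6 of 16) extend furthest to the right and the 5 epithelial identity markers furthest to the left.

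Position along the genome grouped some of the separating genes. On chromosome 12, 69 of 726 genes (9.50%) separated the sides, the highest share of any chromosome, followed by chromosome 19 with 72 of 954 (7.55%, 60 of them higher in side A), and the lowest was chromosome 8 with 2.46%. In runs of 25 neighbouring genes, the median difference ranged from −0.32 to 0.66 over 12857 runs, with the 1st and 99th percentiles at −0.21 and 0.36. The 10 highest runs that did not overlap comprised 6 on chromosome 19, 3 on chromosome 12 and 1 over the histone cluster of chromosome 6. The highest of all ran from PRIM1 to TSPAN31 (chromosome 12, 57124222 to 58144002, GRCh37), where 25 of 25 genes had a positive difference and 14 separated the sides.

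A stretch from 54102301 to 58144002 was drawn to span the 3 runs on chromosome 12 and the genes between them. It was chosen after its values were seen. It held 84 genes, of which 79 (94.1%) had a positive difference and 25 (29.8%) separated the sides, all higher in side A. The median difference was 0.47, a 1.39-fold higher level in side A, against 0.01 over the other 642 genes of the chromosome, of which 6.85% separated the sides. The shift was present in each library of side A: the median departure from the side B mean was 0.64 in shScr_3, 0.37 in shScr_4, 0.56 in shEn1_1.1 and 0.38 in shEn1_2.1. The libraries of side B lay between −0.06 and 0.07.

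The stretch held genes of unlike function. MARS1, the methionyl-tRNA synthetase, read 370.5, 415.7, 373.6 and 426.1 CPM in side A and 244.9, 229.2, 239.7 and 242.6 CPM in side B (log2 0.73). DCTN2, a dynactin subunit, read 208.4, 211.7, 221 and 213.9 CPM against 134.2, 149.2, 135.7 and 128.7 CPM (log2 0.64). The libraries of each side were close to one another in both genes. LRP1, a large endocytic receptor, differed more, at 58.1, 47.9, 23.3 and 42.0 CPM against 6.21, 10.7, 10.95 and 15.6 CPM (log2 1.97). STAT2, NXPH4, ITGA5, ITGA7, SHMT2, HOXC5 and HOXC6 lie in the same stretch. HOXC5 and HOXC6 overlap neighbouring HOXC genes, so their reads may be shared. In the HOX list they were the 2 separating genes of 24 (8.33%, beside 5.22% of all genes), and 18 of 24 had a positive difference.

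**Figure D5:**
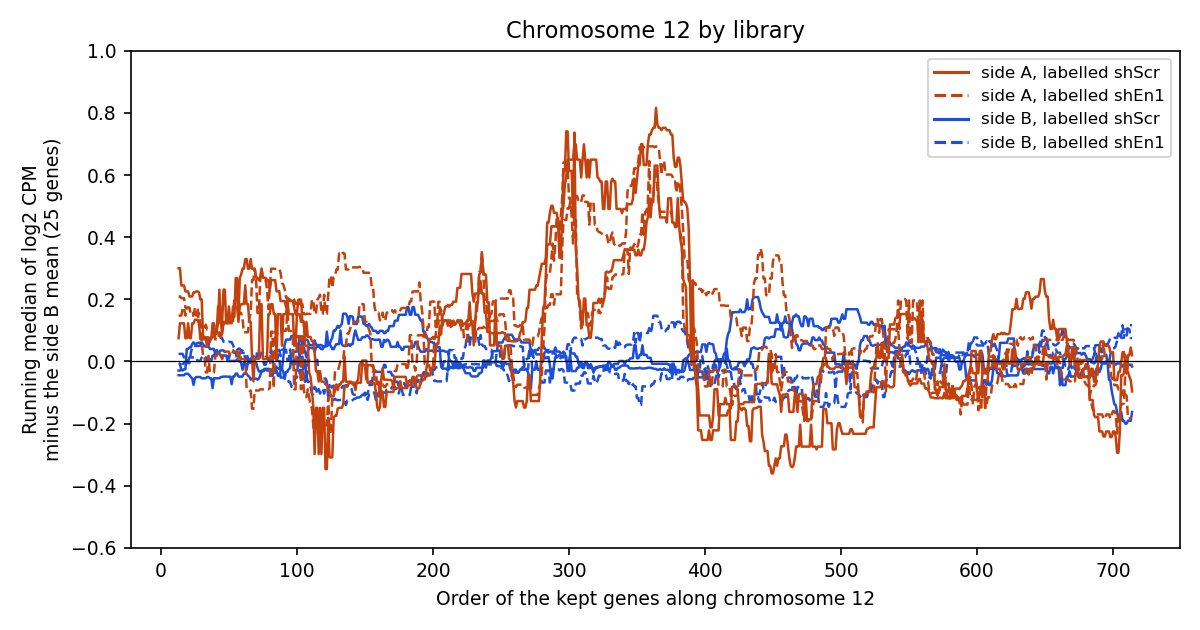
Running median over 25 neighbouring genes of log2 CPM minus the side B mean, along the order of kept genes on chromosome 12, one line per library (orange for side A, blue for side B, solid for shScr and dashed for shEn1). All 4 libraries of side A rise above the others near the middle of the chromosome, with the median over the 84 genes of the stretch between 0.37 and 0.64. The stretch was chosen on these values, and side B centres on 0 because its mean was subtracted.

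The genes higher and lower in side A differed in abundance. The median of the mean level was 3.40 CPM for the higher genes, 28.9 CPM for the lower genes and 23.3 CPM over all genes kept. In the lowest quintile of abundance (0.201 to 2.77 CPM), 210 genes were higher and 40 lower in side A, and in the highest quintile (above 79.7 CPM) 11 were higher and 72 lower. With a minimum mean of 5 CPM, 187 genes were higher and 215 lower, so the excess of higher genes did not hold among abundant genes. The number of genes with at least 1 count also differed, at 16576 to 17073 in side A and 16090 to 16370 in side B, although library totals lay between 33423590 and 37810604 counts and did not follow the sides. The part of this in the low-abundance genes was not tested.

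Length, GC content, gene type and promoter letters were also compared. Median transcript length was 4067 bases for the higher genes, 3689 for the lower genes and 3757 for all genes, and median GC content 52.4%, 51.3% and 48.2%. Protein-coding genes and long noncoding RNAs separated the sides at close shares (670 of 12715, 5.27%, and 36 of 619, 5.82%). In RefSeq promoters (GRCh38.p14, 250 bases before to 50 after the start, both strands), the E-box CACGTG, bound by MYC-MAX and MXD-MAX dimers, was found in 10.1% of 367 higher genes, 7.78% of 180 lower genes and 10.1% of all 10915 kept genes with a promoter. The homeodomain core TAATTA was found in 1.91%, 2.78% and 1.84%. These shares are descriptions of the letters in that window.

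The label of epithelial cells held for both sides, with a summed level of the epithelial identity markers of 11110 to 11490 CPM in side A and 13830 to 17620 CPM in side B. Fibroblast markers summed to 1.71 to 4.22 CPM in side A and 1.17 to 1.86 CPM in side B, and 5 of 7 (COL1A2, COL3A1, DCN, LUM and THY1) were at 0 in every library. Endothelial markers summed to at most 0.676 CPM, with CDH5, KDR and TEK at 0. Leukocyte markers summed to 8.43 to 35.3 CPM in side A and 20.03 to 24.7 CPM in side B, with PTPRC, CD3E and MS4A1 at 0. In such bulk RNA, fewer cells of a type and less RNA per cell cannot be told apart, and sides that differ in the mix of cell states cannot be told apart from sides whose cells all differ.

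The labels gave the one contrast that the sides did not use, because each side held 2 libraries of each label. Between shEn1 and shScr, 0 of 14333 genes (0%) were DEGs at an adjusted p below 0.05 in the edgeR quasi-likelihood test, 44 (0.307%) had an unadjusted p below 0.05, and DESeq2 called 2. Of the 748 genes that separated the sides, 0 had an unadjusted label p below 0.05, but their split within each label made such a value unlikely. For EN1, the markers and the genes with the widest gaps, the label log2 fold changes lay between −0.37 and 0.49 with standard errors of 0.29 to 1.27, and the lowest unadjusted p was 0.460. These standard errors contain the spread between the sides within each label, so a label effect of that size on these genes could not be bounded. Nothing stated that the libraries came from separate cultures, so these p-values measure the spread between these libraries.

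The dataset numbers in the file headers ran on without a break, and the blocks given here were drawn where the side changed. They ran from 17 to 20 for shScr_1 and shScr_2, from 21 to 24 for shEn1_1.1 and shEn1_2.1, from 25 to 28 for shEn1_1.2 and shEn1_2.2, and from 29 to 32 for shScr_3 and shScr_4. Side B held the first of these blocks and the one before the last, and side A held the others. Both pairs of side A were split between its blocks. The library shScr_3 had 29 to 30 and its partner shEn1_1.1 had 21 to 22. For shScr_4 the numbers were 31 to 32 and for its partner shEn1_2.1 they were 23 to 24. What the numbers stand for was not stated. A culture, extraction or sequencing batch was not given, and a batch that matched the sides cannot be told apart from them.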

How the data were processed

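RNA-seq of SUIT2 cells was analysed in 8 libraries with 1 table each. The values the authors deposited are raw counts of reads per Entrez gene. The study's methods name HISAT2, hg19 and featureCounts, while the submitters' processing notes list mm9; human genes are counted here. Annotation and strand setting are not given in the sources used here, so overlapping and antisense genes may share reads. Of 25702 identifiers, 23696 matched a symbol in RefSeq (GRCh38.p14, names only), and the rest held 0.214 to 0.257% of counts. Positions are from GENCODE on GRCh37 by symbol (22469 identifiers). Totals were 33423590 to 37810604 counts per library.

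Genes were filtered with filterByExpr (minimum count 10) and scaled with TMM factors in edgeR 4.0.16 (R 4.3.3). Log2 CPM used a prior count of 2. The sides, the members and the gene lists were chosen with earlier results of these data known, so the sides were compared without a test. Labels were tested with glmQLFit (robust) and glmQLFTest, Benjamini-Hochberg adjusted, threshold 0.05. Alternatives included DESeq2 1.42.0. Named genes were EN1, the 4 markers, the 12 separating genes of widest gap in each direction among those with a mean of at least 5 CPM, and up to 3 separating members per list with the largest difference. Results for some genes that meet this rule are not reported here. All other genes in the text were picked with their values in view. In simulated counts with 200 altered genes, 95 were called between the labels at a 2-fold and 163 at a 4-fold change. The simulated libraries were independent and lacked the sides and pairs seen here, so this recovery need not hold for these data.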

Additional observations from a re-analysis of the deposited data

Results flagged for a closer look

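Among 192 groups of 4 libraries examined (both sides for library measures and named genes, and shScr for library measures), 10 held a library far from the other 3, where chance gives about 1 in 20, or 9.6 groups. Of the library measures, the number of genes detected in side B was lowest in shScr_1 at 16090 (the others had 16344 to 16370), and the share of counts in the 10 most abundant genes in side A was highest in shEn1_1.1 at 7.14% (the others had 5.89 to 6.10%).

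Among genes higher in side A, the library labelled shScr_1 was low in side B for NEURL1B (0.964 CPM, others 2.09 to 2.30 CPM) and EPHB3 (0.964 CPM, others 2.16 to 2.38 CPM). The library labelled shScr_2 was high for LMLN (5.29 CPM, others 3.58 to 3.85 CPM) and low for NTN1 (2.02 CPM, others 4.58 to 5.03 CPM). Within side A, shScr_4 was high for TCF7L1 (1.82 CPM, others 0.672 to 0.864 CPM), while shScr_3 was high for HOXC5 (2.70 CPM, others 0.728 to 0.908 CPM) and low for VLDLR (10.1 CPM, others 13.6 to 13.98 CPM). Among genes lower in side A, shScr_4 was low for NIPAL1 (6.65 CPM, others 7.61 to 7.77 CPM).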

How the results depend on the processing

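The count of 748 separating genes (478 higher, 270 lower in side A) stayed within 1.5 times under DESeq2 size factors, upper-quartile and library-size scaling, an unfiltered table, a floor of 10 counts per library and a prior count of 0.5 (625 to 908). It was 367 (275 and 92) at 2-fold and 402 (187 higher) with a mean of at least 5 CPM, a setting chosen after seeing the data. With fewer libraries the count grew, as fewer must not overlap: 1787 (1097 and 690) in the 4 libraries labelled shScr and 1461 (757 lower) in the 4 labelled shEn1. Without the pair shScr_3 and shEn1_1.1 it was 3035 (1633 and 1402; 668 of the 748 shared), and without the pair shScr_4 and shEn1_2.1 it was 1197 (787 and 410; 536 shared). Leaving out 1 library gave 773 to 1328 (503 to 852 higher, 249 to 522 lower), the 1.5-fold limit being passed without shScr_3 (1155) and without shEn1_1.1 (1328, 852 higher). Of list genes, 104 separated the sides, 317 and 158 without the pairs, and 104 to 146 without 1 library. A reversal was counted only for genes that separated the sides, so EN1 could not count as one. In EN1 the pair shScr_3 and shEn1_1.1 lay 0.07 above side B, against −0.69 for all of side A. Over 1830 gene values under these settings, 0 reversed by this count and 1744 stayed within the spread inside the sides. Of these, 752 had 1 library left out, which can hardly move a side mean by that spread. Under the other settings, 992 stayed within it and 86 moved beyond it. Where the sides do not overlap, leaving out libraries can hardly change the sign either, so these counts say little about stability. Apart from EN1, a named gene no longer separated the sides in 103 of the 1830 values, spread over 38 genes.

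For the labels, 0 genes were DEGs in edgeR and 2 with DESeq2 (VAMP7 and a gene without a symbol). Leaving out 1 library gave 0 to 1 (VAMP7, without shScr_4). A fit with replicate number as block gave 1 (VAMP7). In that fit 271 genes had an unadjusted p below 0.05 (edgeR quasi-likelihood test), 12 of them named genes, against 0 named genes without the block. But the numbers do not pair the libraries, since deviations of same-numbered libraries correlated between −0.381 and 0.319. The libraries shScr_3 and shScr_4 have no same-numbered shEn1 library. Fold changes of genes below about 1 CPM rest on few counts.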
